A study of Mus musculus with 6 samples.

Results

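To examine how the cold shock domain genes were expressed in the embryonic mouse cortex, and whether the others were higher where Ybx1 was deleted, the rows of Ybx1, Ybx2, Ybx3, Lin28a, Lin28b, Carhsp1 and Csdc2 were taken from the deposited table by gene symbol. All 7 members were found among 17348 genes, and 6 were among the 13340 genes tested. Lin28a had too few counts to be tested.

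RNA was sequenced from the dissected cortex of E13.5 mouse embryos, with 3 libraries labelled WT and 3 labelled cKO. In the cKO embryos both Ybx1 alleles carry loxP sites (Ybx1 fl/fl) and the Nestin-Cre transgene is present. The floxed region spans exons 3 to 8, and the Cre acts in neural progenitors and the cells derived from them. Most blood, vessel, meningeal and immune cells of the dissected tissue are taken to be outside its reach, which was not tested here. The controls were littermates, named wild type in the labels and in the sequencing methods, and Ctrl in the column headers of the deposited data. In the study's other experiments Ctrl stood for Ybx1 fl/fl embryos without Cre. The sources used here do not state the exact allele of the embryos in these 3 control libraries, nor whether a library holds 1 embryo or several. The floxed line was made in C57BL/6J eggs and its founders were bred with C57BL/6J mice; the background of the Nestin-Cre line in these embryos and their sex were not given in the sources used here.

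The libraries held 15907491 to 16282929 estimated counts, and a count of 0 allowed up to 3 counts, or 0.184 to 0.189 CPM (counts scaled to the library total), for counting error only. Emx1, Emx2, Pax6, Eomes and Tbr1, which mark the dorsal forebrain, its progenitors and its early neurons, were each at 69.4 TPM (transcript abundance corrected for length and depth) or more in every library. A group of 3 keratin genes summed to 265 TPM in cKO 3 against 0 to 0.31 TPM in the other 5 libraries, and 5 meningeal and fibroblast genes summed to 260 TPM there against 3.94 to 6.43 TPM. The 7 interneuron genes summed to 92.6 to 145 TPM in WT and 221 to 231 TPM in cKO. In TPM, 3 of the 7 had all cKO libraries above WT, where 4.21% of all tested genes did so on CPM. The part of these cells in the results below was not tested.

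The cold shock domain is a small barrel-shaped fold that binds single-stranded nucleic acids through a pair of short conserved motifs called RNP1 and RNP2. Y-box proteins (Ybx1, Ybx2 and Ybx3) coat messenger RNA and control its translation and stability, and Ybx1 also binds RNA that carries 5-methylcytosine. Lin28a and Lin28b join the same fold to zinc knuckles and block the maturation of let-7 microRNAs, which keeps progenitors in an early state. Carhsp1 and Csdc2 are small RNA-binding proteins that carry the domain.

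The stretch that carries both motifs is shown because it is what the 7 members have in common. Each is the coding strand of the GENCODE M21 transcript (GRCm38), 5′ to 3′, with the bases that encode RNP1 and then RNP2 in capitals.
Ybx1: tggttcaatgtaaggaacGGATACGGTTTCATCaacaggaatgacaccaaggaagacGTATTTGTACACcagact
Ybx2: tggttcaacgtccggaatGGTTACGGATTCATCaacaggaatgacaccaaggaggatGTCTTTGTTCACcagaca
Ybx3: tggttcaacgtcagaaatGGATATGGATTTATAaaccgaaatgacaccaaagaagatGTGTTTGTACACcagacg
Lin28a: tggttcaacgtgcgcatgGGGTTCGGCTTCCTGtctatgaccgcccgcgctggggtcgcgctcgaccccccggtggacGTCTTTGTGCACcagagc
Lin28b: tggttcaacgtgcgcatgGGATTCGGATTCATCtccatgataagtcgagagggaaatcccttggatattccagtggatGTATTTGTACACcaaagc
Carhsp1: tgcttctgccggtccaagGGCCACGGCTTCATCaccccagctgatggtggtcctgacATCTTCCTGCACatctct
Csdc2: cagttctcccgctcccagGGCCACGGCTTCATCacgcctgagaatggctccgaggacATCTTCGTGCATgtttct

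The Y-box genes, Carhsp1 and Csdc2 had 24 bases between the motifs, and both Lin28 genes had 45. Over these 75 bases Ybx2 differed from Ybx1 at 11 positions and Ybx3 at 14, while Carhsp1 differed at 39 and Csdc2 at 40. The RNP2 bases of Lin28b were identical to those of Ybx1. In Ybx1 the bases for RNP1 are coding bases 205 to 219 and lie in exon 2, ahead of the deleted part, and those for RNP2 are coding bases 244 to 255 and lie in exon 3, inside it. The 2 exons that remain hold 224 of the 966 coding bases, which is 23.2%, and 465 of the 1628 transcript bases.

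The members lie on different chromosomes, except that Ybx1 and Lin28a share chromosome 4. The longest exact run shared by transcripts of 2 members was 26 bases (Ybx1 and Ybx2). It lay at coding bases 214 to 239 of Ybx1 and overlapped the end of the RNP1 bases:
Ybx1 and Ybx2: ttcatcaacaggaatgacaccaagga
Ybx1 and Ybx3 shared at most 20 bases, as did Lin28a and Lin28b. The read length was not given in the sources used here. The annotation also holds a processed pseudogene, Ybx1-ps2, at chr6:37686239-37687195 on the minus strand of GRCm38, which shares a run of 149 bases with the Ybx1 transcript. It was not analysed here, and Ybx1 counts carry that uncertainty.

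Ybx1 (Entrez 22608, chr4:119277981-119294604, minus strand, GRCm38) was the most abundant member in WT and the member with the largest genotype difference. Its level was 1175 TPM in WT 1, 557 TPM in the library labelled WT 2 and 1314 TPM in WT 3, against 94.1, 124 and 161 TPM in cKO 1, 2 and 3. Every WT library was above every cKO library, but the library labelled WT 2 held only 44.7% of the mean of WT 1 and WT 3. Whether the genotype of this library is as labelled was not tested, and the WT mean and each comparison with WT carry that doubt. The mean was 1016 ± 403 TPM (SD, n = 3) in WT and 126 ± 33.6 TPM (SD, n = 3) in cKO, so that 12.4% of the WT level was found in the cKO cortex. In the order of mean TPM over all listed genes, Ybx1 stood at position 129 in WT and 1416 in cKO. In bulk tissue, fewer cells that express a gene and less RNA per cell cannot be told apart.

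The log2 fold change of Ybx1 was -3.00 (SE 0.33, 95% interval -3.77 to -2.23), with an adjusted p of 0.128 by the quasi-likelihood test of edgeR. The adjusted p therefore missed the threshold of 0.05, which 0% of the 13340 genes passed in either direction. At an unadjusted p under 0.05 there were 234 genes higher in cKO (1.75%) and 242 lower (1.81%), and Ybx1 had a p of 1.93e-05, rank 2 of all. Libraries of the genotypes did not overlap for 4.83% of genes in the direction of Ybx1 and for 4.21% in the other. Whether it passed depended on the test and on the library labelled WT 2. With all 6 libraries the adjusted p was 5.46e-10 with DESeq2, 5.19e-15 with edgeR's exact test, 0.0168 with quality weights in limma-voom and 0.0381 with the replicate number as a block. Without that library, in the quasi-likelihood test, the log2 fold change was -3.28 with an adjusted p of 0.0206, and Ybx1 in cKO stood at 10.1% of WT. Without both that library and cKO 3, the library with keratin transcripts, it was -3.49 with an adjusted p of 0.0188, and the level in cKO was 8.74% of WT.

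The effective transcript length implied by the deposited counts and FPKM values did not separate the genotypes for Ybx1. It was 1924, 1919 and 1917 bases in WT 1, 2 and 3 and 1931, 1922 and 1925 bases in cKO 1, 2 and 3, a difference of 0.316% (exact two-sided permutation test, p = 0.20, where 0.10 is the smallest p that 3 against 3 libraries allow). This length is the one that scaled counts to FPKM, and it need not equal the 1628 bases of the GENCODE M21 transcript. It follows the mixture of annotated isoforms that the authors' software estimated. It does not show which exons the reads came from.

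**Figure D1:**
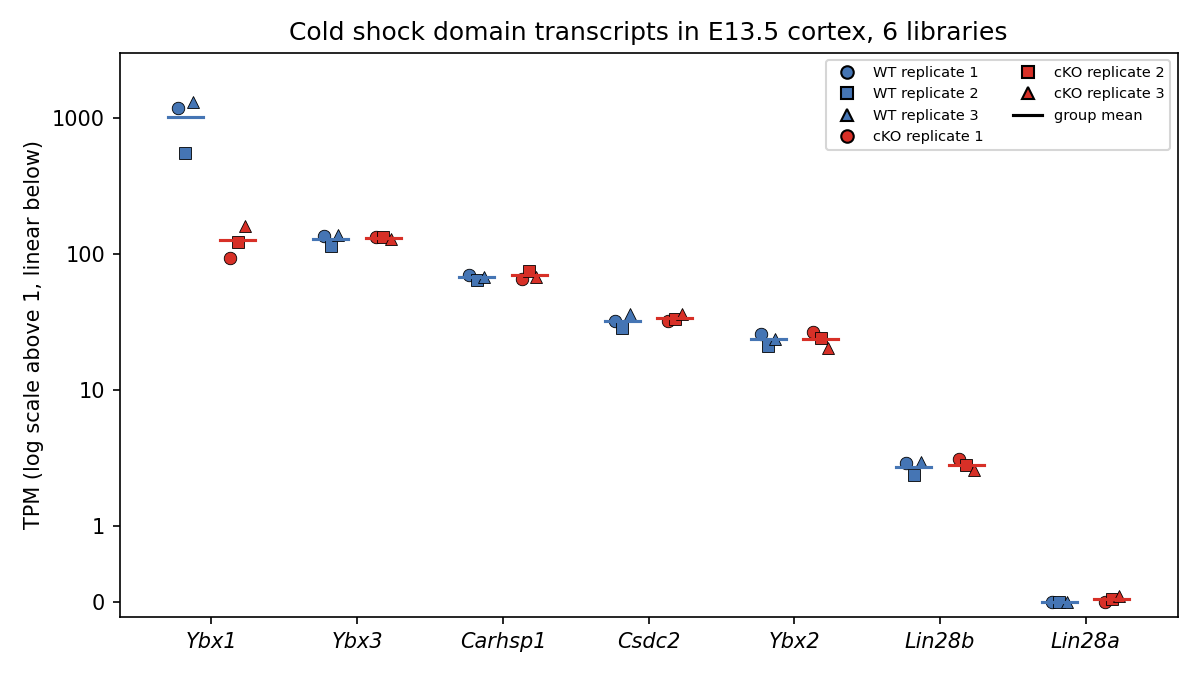
TPM of the 7 members in each library (vertical axis, log scale above 1 and linear below), with WT libraries in blue, cKO libraries in red, symbols for the replicate number and lines for group means. Ybx1 was at 557 to 1314 TPM in WT and 94.1 to 161 TPM in cKO, and the points of the other 5 tested genes overlapped between genotypes.

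The other 2 Y-box genes did not differ detectably. Ybx3 (Entrez 56449, chr6:131364855-131388476, minus strand) encodes an RNA-binding protein that also represses genes of cell junctions and growth. It was at 137, 114 and 137 TPM in WT 1, 2 and 3 and at 134, 133 and 130 TPM in cKO 1, 2 and 3. The cKO libraries all lay inside the range of WT, whose lower end was the library labelled WT 2. The means were 129 ± 13.2 TPM in WT and 132 ± 2.23 TPM in cKO (SD, n = 3 each). The log2 fold change was 0.02 (SE 0.08, 95% interval -0.16 to 0.20). For the gene that was the next most abundant after Ybx1, a rise above 1.15-fold was therefore outside the interval.

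Ybx2 (Entrez 53422, chr11:69935796-69941605, plus strand) encodes the Y-box protein best known for storing messenger RNA in germ cells. Its level was 25.9, 21.1 and 23.8 TPM in WT 1, 2 and 3 and 26.6, 24.0 and 20.4 TPM in cKO 1, 2 and 3. The highest and the lowest library were both cKO. The log2 fold change was -0.06 (SE 0.11, 95% interval -0.32 to 0.19). Ybx2 was thus present in the cortex of both genotypes, at 23.6 ± 2.43 TPM in WT and 23.7 ± 3.12 TPM in cKO (SD, n = 3 each).

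The implied effective transcript length of Ybx2 was 1892, 1988 and 1882 bases in WT and 1825, 1864 and 1830 bases in cKO. All cKO libraries were below all WT libraries, and the difference of the means was -4.20%. Among 10281 genes with such a length, 2.28% did not overlap in this direction, and 1.78% had a larger change of either sign. No test of this length was made.

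Carhsp1 (Entrez 52502, chr16:8658580-8672155, minus strand), a phosphoprotein regulated by calcium signalling that binds and stabilises messenger RNA, was at 69.6, 64.7 and 68.1 TPM in WT 1, 2 and 3. In cKO 1, 2 and 3 it was at 65.2, 75.7 and 68.0 TPM. The genotypes overlapped, with cKO 2 the highest library, and the log2 fold change was 0.04 (SE 0.09, 95% interval -0.16 to 0.25).

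Csdc2 (Entrez 105859, chr15:81936759-81950941, plus strand) encodes PIPPin, an RNA-binding protein enriched in brain. Its level was 32.1, 28.6 and 36.1 TPM in WT 1, 2 and 3 and 32.2, 33.1 and 36.1 TPM in cKO 1, 2 and 3. The ranges overlapped, and the log2 fold change was 0.06 (SE 0.11, 95% interval -0.19 to 0.31).

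The Lin28 genes stood at the bottom of the family. Lin28b (Entrez 380669, chr10:45376620-45486395, minus strand) was at 2.91, 2.36 and 2.96 TPM in WT 1, 2 and 3 and at 3.10, 2.82 and 2.60 TPM in cKO 1, 2 and 3, from 102 to 132 estimated counts per library. The log2 fold change was 0.05 (SE 0.15, 95% interval -0.29 to 0.38), and the genotypes overlapped. Lin28a (Entrez 83557, chr4:134003330-134018841, minus strand) had 0 counts in every WT library and in cKO 1, 1 count in cKO 2 and 2 counts in cKO 3. At this depth Lin28a was not detectable in WT, and with both genotypes under the floor of 3 counts per library no fold change is given.

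For these 5 tested members beside Ybx1 the adjusted p was 0.99995 in each case (edgeR), and none passed the test, which 0% of all tested genes passed. Libraries of the genotypes overlapped for all 5, where 9.04% of all genes did not overlap. Of the 5, 4 had a positive log2 fold change, with a median of 0.04, while the median over all tested genes was 0.0019. The highest upper bound of their 95% intervals was 1.304-fold (Lin28b) and the lowest lower bound was 0.802-fold (Ybx2). Taken at its upper bound, each member would be higher in cKO by an amount that sums to 43.9 TPM, which is 4.93% of the 889 TPM by which Ybx1 was lower.

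**Figure D2:**
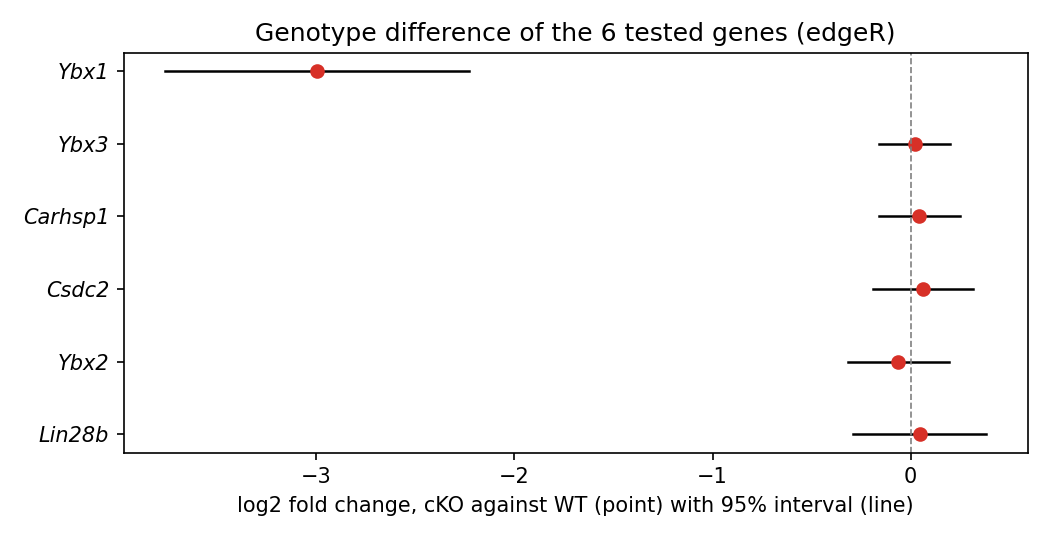
Log2 fold change of cKO against WT (horizontal axis; points) with 95% intervals (lines) for the 6 tested members, from edgeR. Ybx1 lay at -3.00, and the intervals of the other 5 genes included 0 and stayed between -0.32 and 0.38.

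The summed level of the 7 members was 1442, 788 and 1582 TPM in WT 1, 2 and 3 and 355, 392 and 418 TPM in cKO 1, 2 and 3. All cKO sums were below all WT sums, with means of 388 ± 31.5 and 1271 ± 424 TPM (SD, n = 3 each). Without Ybx1, the other 6 members summed to 267, 231 and 268 TPM in WT and 261, 268 and 257 TPM in cKO. These sums overlapped, and the means differed by 6.68 TPM, less than the spread of 21.3 TPM (SD) between WT libraries. The lowest sum was that of the library labelled WT 2. The log2 ratio of the mean sums, cKO against WT, was 0.037 with all libraries and -0.030 without WT 2.

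The make-up of the family therefore differed while the levels of the other members overlapped. Ybx1 held 81.5, 70.7 and 83.1% of the summed TPM in WT 1, 2 and 3 and 26.5, 31.5 and 38.5% in cKO 1, 2 and 3. The mean share of Ybx3 was 10.9% in WT and 34.2% in cKO, and that of Carhsp1 was 5.78 and 17.98%. Csdc2 held 2.71 and 8.72%, Ybx2 1.99 and 6.16%, and Lin28b 0.229 and 0.738%. These shares sum to a fixed total, so a lower Ybx1 raises all others.

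**Figure D3:**
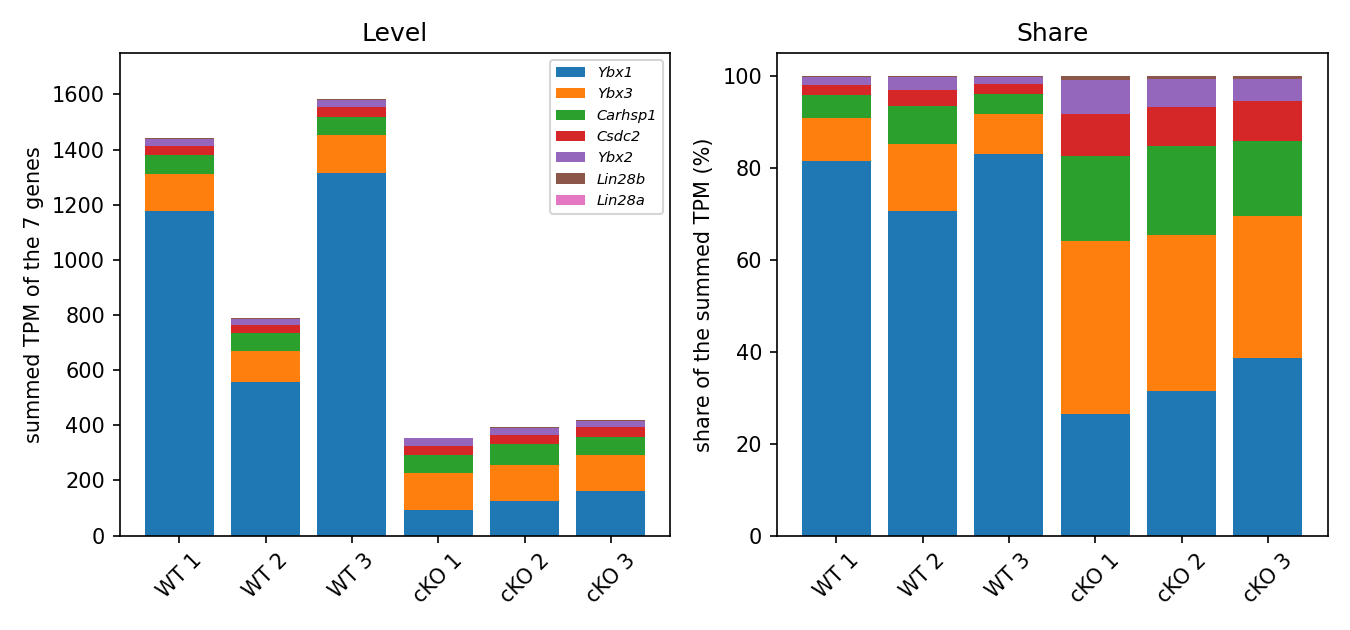
Stacked bars for each library, with the summed TPM of the 7 members (left) and the share of each member in that sum in percent (right). Ybx1 took 70.7 to 83.1% of the sum in WT and 26.5 to 38.5% in cKO, and the part of the bars above Ybx1 was 231 to 268 TPM high in all 6 libraries.

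The order of levels in WT was Ybx1, Ybx3, Carhsp1, Csdc2, Ybx2, Lin28b and Lin28a in 3 of 3 libraries, with no overlap between neighbours. The mean TPM of Ybx1 was 7.86 times that of Ybx3, and the closest neighbours were Csdc2 and Ybx2, at a ratio of 1.37. In cKO, Ybx3 was above Ybx1 in 2 of 3 libraries (cKO 1 and cKO 2), and their ranges overlapped. The other members kept the order of WT in 3 of 3 cKO libraries. The range of log2 CPM over the 6 libraries was 3.88 for Ybx1, and it lay between 0.24 (Ybx3) and 0.38 (Lin28b) for the other 5 tested members. The median range of all tested genes was 0.38.

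Promoter sequence was compared for the motif CCAAT, the core of the Y-box for which the proteins are named, in the window from 250 bases before to 50 after the RefSeq start (GRCm38.p6). A window was found for 6 of 7 members. On either strand, Ybx1 held 3 copies, 1 of the alternative starts of Ybx2 held 2 and the other 0, Lin28b and Carhsp1 held 1 each, and Ybx3 and Lin28a held 0. Of all 32851 windows, 37.4% held at least 1 copy and 3.37% at least 3. These matches describe the letters in the window and no binding.

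The exonucleases Dis3, Dis3l and Dis3l2, which degrade RNA and carry related folds, gave a similar picture. Their log2 fold changes were -0.08 (SE 0.09), -0.02 (SE 0.08) and 0.01 (SE 0.08), and in each the genotypes overlapped. None of these 3 passed the test, which 0% of the 13340 genes passed.

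Genes of the let-7 pathway, on which the Lin28 proteins act, were examined as processing factors and as targets. Of all 13340 genes tested, 0% passed the test, 6774 were positive and 6566 negative. Of 12 processing factors, 0 passed the test in either direction, 2 were positive and 10 negative, with a median of -0.06. They ranged from Ago1, which loads microRNAs, at -0.14 (SE 0.10) to Prkra, a partner of Dicer, at 0.08 (SE 0.08). Judged on CPM, libraries overlapped for all 12, where 9.04% of all tested genes did not overlap. In TPM the libraries of Prkra did not overlap (72.83 to 78.27 TPM in WT, 78.33 to 80.58 TPM in cKO). Those of Xpo5 did not either (87.15 to 89.74 TPM in WT, 80.76 to 85.60 TPM in cKO). Of 19 let-7 target transcripts, 18 were tested and 0 passed, with 8 positive, 10 negative and a median of -0.01. Trim71 was not tested. Hmga2, a chromatin protein of young progenitors, had the highest log2 fold change, 0.38 (SE 0.33), and its levels of 37.8, 51.1 and 58.4 TPM in WT and 36.7, 91.8 and 62.8 TPM in cKO overlapped. The cyclin Ccnd2 had the lowest, -0.48 (SE 0.22). Judged on CPM, libraries did not overlap for 1 of 18, where 4.83% of all tested genes did not overlap in this direction. That gene was Nr6a1, a nuclear receptor (-0.16, SE 0.12). In TPM its libraries overlapped (2.67 to 3.18 TPM in WT, 2.42 to 2.90 TPM in cKO), while those of Nras did not. Nr6a1, Nras and Xpo5 are named after their values were seen.

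Messenger RNP partners of Ybx1 are proteins that sit with it on messenger RNA. Of 21 tested, 0 passed the adjusted test, which 0% of the 13340 genes passed. Of the 21, 6 were positive and 15 negative, and the median was -0.03. Ddx6, a helicase of processing bodies, was the lowest at -0.24 (SE 0.08, unadjusted p = 0.0133 and adjusted p = 0.99995, edgeR). Its level was 195, 196 and 208 TPM in WT 1, 2 and 3 and 158, 170 and 178 TPM in cKO 1, 2 and 3. The genotypes did not overlap. Ncl, a nucleolar RNA-binding protein, was the highest at 0.14 (SE 0.13). Ddx6 was the 1 partner with an unadjusted p under 0.05, where 3.57% of all tested genes had one. Judged on CPM, libraries did not overlap for Ddx6, the stress granule protein G3bp2 (-0.05, SE 0.06) and Lsm14a, another processing body protein (0.13, SE 0.07). On the same measure 9.04% of all tested genes did not overlap in either direction. In TPM the libraries of G3bp2 overlapped (188 to 199 TPM in WT, 179 to 192 TPM in cKO), while those of Caprin1 and Strap did not. G3bp2, Lsm14a, Caprin1 and Strap are named after their values were seen.

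The genes whose profile over the 6 libraries was nearest to that of Ybx1, by root mean square distance of centred log2 CPM, were Aox4 (0.984), Rasal1 (1.07), Gm52481 (1.08), Cck (1.09) and 6330409D20Rik (1.12), where a flat profile lay at 1.54. They had 2 to 52 counts per library, so counting error was large. Nearest to the mirror image were Tmem269 (0.580), Ermap (0.703), Cldn19 (0.741), Brinp3 (0.945) and Ptgds (1.03). The first 3 of these were closer to the mirror image than any gene was to the profile itself.

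These 3 genes lie next to Ybx1 on chromosome 4. Among 15 other tested genes within 500 kb, a window chosen after these values were seen, libraries did not overlap for these 3, all higher in cKO. Over all tested genes, 4.21% did not overlap in this direction. The 3 genes were picked as nearest to the mirror image of Ybx1, which largely fixed their separation, so their count is no independent support. Cldn19, a tight junction protein, lay 14.9 kb from Ybx1 and had 6, 73 and 7 counts in WT 1, 2 and 3 and 136, 81 and 77 counts in cKO. Tmem269, a predicted membrane protein, lay 58.8 kb away with 23, 142 and 17 counts in WT and 304, 240 and 254 counts in cKO. Ermap, an erythroid membrane protein, lay 87.3 kb away with 14, 34 and 11 counts in WT and 65, 49.2 and 69 counts in cKO. In all 3 the library labelled WT 2 was the highest of WT and nearest to cKO, as it was the lowest of WT for Ybx1, a pattern that their choice as nearest to the mirror image of Ybx1 fixed.

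Their log2 fold changes were 1.76 (SE 0.78) for Cldn19, 2.12 (SE 0.64) for Tmem269 and 1.61 (SE 0.40) for Ermap, each with an adjusted p of 0.99995 (edgeR). All 3 lay on the side of lower coordinates, downstream of Ybx1, which is read from the minus strand. Genes between them did not follow: Svbp was at -0.03 (SE 0.11) and AU022252 at 0.14 (SE 0.08), while P3h1 was at -0.53 (SE 0.24) with overlapping libraries. On the other side Ppih, 3.75 kb away, was at 0.07 (SE 0.12). In all, 11 of the 15 genes lay within 0.5 of 0 in log2 fold change. It was not given whether counting used strand, so reads of overlapping genes cannot be told apart. Summed erythroid markers, of interest for Ermap, were 4248 to 6190 TPM in WT and 4605 to 7687 TPM in cKO and overlapped.

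**Figure D4:**
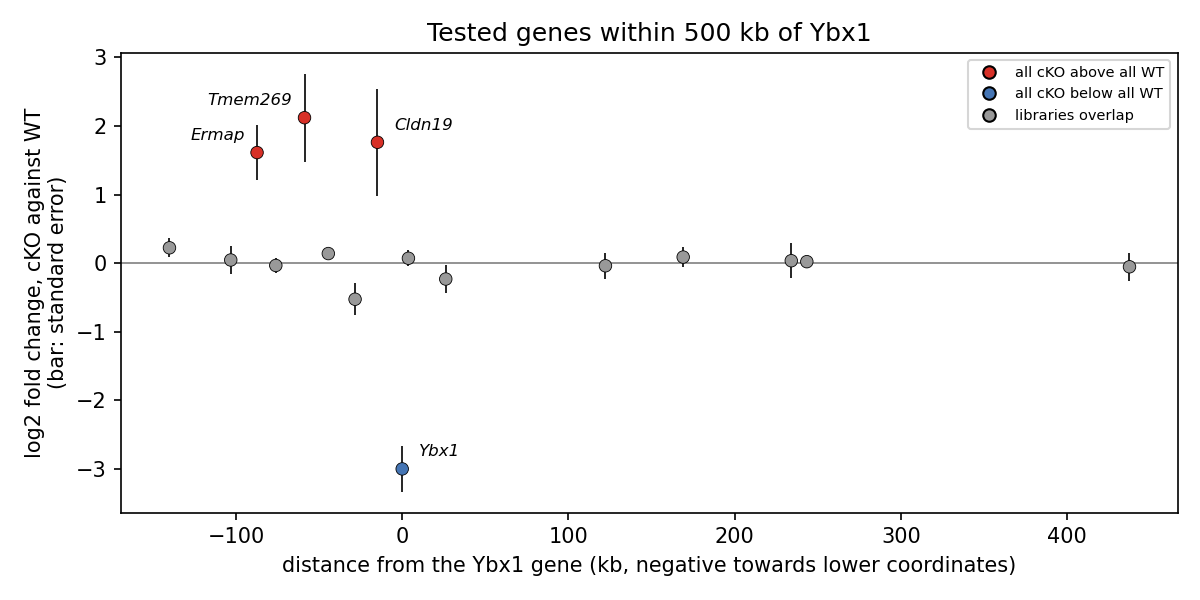
Log2 fold change of cKO against WT (vertical axis; bars are standard errors) against the distance from the Ybx1 gene in kb (horizontal axis) for the tested genes in the window. Ermap, Tmem269 and Cldn19 (red, all cKO above all WT) stand between 1.61 and 2.12 on the downstream side, Ybx1 (blue) is at -3.00, and the genes in grey overlap between genotypes.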

How the data were processed

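RNA was sequenced from E13.5 cortex of 3 WT and 3 cKO embryos' libraries, grouped by the titles in the labels. RNA was extracted with Trizol. The submitters' processing notes name HISAT2 2.2.1, Bowtie2 2.4.5, RSEM 1.3.1 and GRCm38 (mm10), while annotation, read length and strand setting are not given in the sources used here. The deposited table holds, for each of 17348 genes, estimated counts made by the authors without scaling for depth (10.9% of values are not whole), TPM values that the authors scaled so that all libraries have equal sums, and FPKM values that the authors scaled for length and depth. Its group averages were not used.

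Estimated counts were rounded, filtered with filterByExpr (minimum count 10, minimum total 15), scaled by TMM and tested with the quasi-likelihood test of edgeR 4.0.16 (R 4.3.3), on genotype alone, with Benjamini-Hochberg adjustment over 13340 genes and a threshold of 0.05. Standard errors are the log2 fold change divided by the square root of F. Levels between genes were compared in TPM. Whether libraries overlapped was judged on TMM-scaled CPM. The controls were littermates of cKO embryos, but which libraries share a litter was not given, and p-values measure the spread between these libraries, which may in part be technical. The series description speaks of 3 batches without saying which libraries each holds, so no within-batch value can be given.

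The members and lists were chosen with earlier results of these data known. Of each list, the genes with the highest and lowest log2 fold change are named, beside any gene that passes the test, and of the proteins with related folds the 3 exonucleases. Some listed genes are not reported here. Of the profiles, the 5 nearest genes on either side are named. Coordinates, transcripts and domain bases are from GENCODE M21 and promoters and distances between genes from RefSeq of GRCm38.p6. Proteins were not analysed here. Alternatives were other scaling factors (RLE, upper quartile), other filters (none, or 10 counts per library), DESeq2 1.42.0, limma-voom (limma 3.58.1) with and without quality weights, edgeR's exact test, robust empirical Bayes, limma on log2(TPM + 1), the replicate number as a block, and libraries left out. The fit was tested on simulated data.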

Additional observations from a re-analysis of the deposited data

How the results depend on the processing

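Ybx1 was lower in cKO under 18 of 18 alternatives, with log2 fold changes between -3.49 and -2.75, and was called in 6 of them: DESeq2 (-3.00, adjusted p = 5.46e-10), limma-voom with quality weights (-3.10, 0.0168), edgeR's exact test (-3.00, 5.19e-15), the replicate block (-2.95, 0.0381), without the library labelled WT 2 (-3.28, 0.0206) and without both WT 2 and cKO 3 (-3.49, 0.0188). Adjusted p-values over all alternatives ran from 5.19e-15 to 0.953, and leaving out 1 library gave -3.28 to -2.75. In each of these 6 fits 1 member was called, Ybx1, against 0 in the main edgeR test, and with 1 library left out the number was 0 to 1. The genes called higher were 2 with DESeq2, 2 with quality weights and 2 with the exact test, and 1 with the replicate block, without WT 2, and without WT 2 and cKO 3. The genes called lower were 2 with DESeq2 and 1 in each of the other 5 fits. Over the libraries left out singly, both numbers were 0 to 1.

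The other members changed sign around 0 without being called, the lowest adjusted p over all alternatives being 0.730. Ybx2 was at 0.036 without cKO 3 and 0.010 without both WT 2 and cKO 3. Ybx3 was at -0.035 with quality weights, -0.042 without WT 2, -0.013 without cKO 2 and -0.026 without both. Lin28b was at -0.040 with quality weights, -0.061 without WT 2 and -0.0023 without both. Carhsp1 was at -0.050 without cKO 2. Csdc2 was at -0.017 with quality weights and -0.043 without both. With 1 library left out, log2 fold changes were -0.11 to 0.036 for Ybx2, -0.042 to 0.078 for Ybx3, -0.061 to 0.10 for Lin28b, -0.050 to 0.12 for Carhsp1 and 0.0057 to 0.16 for Csdc2. The cause of these changes was not tested. The difference in the share of Ybx1 was -46.2 percentage points, and -53.3 without WT 2 and cKO 3. No listed gene was called with DESeq2, with limma-voom without quality weights, or with 1 library left out. The other alternatives were not examined for the listed genes.

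The deviations of same-numbered libraries had correlations of 0.41, 0.31 and -0.02 for replicates 1, 2 and 3. WT 1 correlated best with cKO 1 and WT 2 with cKO 2, while WT 3 correlated better with cKO 2 (0.26) than with cKO 3. The replicate number was not taken as a pairing because it is not stated to mark a litter or batch. Whether it marks one was not tested. With the replicate block, 476 genes had an unadjusted p under 0.05 in the higher and 614 in the lower direction, against 234 and 242 without it. Depth limits Lin28a and, at 102 to 132 counts, Lin28b. With 3 libraries per genotype, intervals of the other members allow differences of up to 1.304-fold.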
